A study of Mus musculus with 6 samples.

Results

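The genes described here encode 9 proteins that build iron-sulfur clusters and hand them to other proteins: Iscu, Nfs1, Isca1, Isca2, Glrx5, Nfu1, Bola3, Hscb and Ciao1. They were found by gene symbol in the count tables of 6 mouse kidneys, where they are 9 of 24422 listed genes, and all 9 passed the filter on low counts. Poly-A RNA of whole kidney was sequenced at postnatal day 60 in 3 control kidneys (genotype wild type) and 3 TfR1KO;KspCre kidneys (genotype Tfr1f/f;KspCre), all of strain C57BL/6 and all on an iron-sufficient diet with 220 ppm iron. The TfR1KO;KspCre mice carry floxed exons in Tfrc, the gene of the transferrin receptor TfR1, and a Cre transgene under the Ksp-cadherin promoter. That promoter works in distal nephron segments, so cells elsewhere keep an intact gene. The comparison asks how the transcripts of a pathway that consumes iron differ when a route of iron entry is deleted in those segments. In whole tissue, fewer cells of a type and less RNA per cell cannot be told apart.

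Iron-sulfur clusters are cofactors of iron and sulfide that carry electrons or shape active sites. In mitochondria the cysteine desulfurase NFS1 supplies sulfur, the cluster forms on the scaffold ISCU, a chaperone pair with HSCB releases it, and GLRX5 passes it to late carriers such as ISCA1, ISCA2, NFU1 and BOLA3. A separate cytosolic machinery, to which CIAO1 belongs, places clusters in cytosolic and nuclear proteins. The kidney tubule, above all the proximal tubule and the thick ascending limb, is rich in mitochondria, whose respiratory complexes and aconitase need these cofactors.

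The promoter windows of the 4 members whose transcripts passed the test below are printed as the sequence context of those calls. Each window runs from 250 bases before to 50 bases after a RefSeq transcript start (GRCm38.p6, a later build than that of the counts), and is written 5′ to 3′ on the strand of the gene. Capitals mark matches on either strand to CCGGAAG (a core bound by ETS family factors such as GABP), CCAAT (bound by NF-Y) and TGCGCA (a core of the NRF1 element). The 3 motifs did not overlap in these windows.
Nfs1, chr2:156144137-156144436, minus strand: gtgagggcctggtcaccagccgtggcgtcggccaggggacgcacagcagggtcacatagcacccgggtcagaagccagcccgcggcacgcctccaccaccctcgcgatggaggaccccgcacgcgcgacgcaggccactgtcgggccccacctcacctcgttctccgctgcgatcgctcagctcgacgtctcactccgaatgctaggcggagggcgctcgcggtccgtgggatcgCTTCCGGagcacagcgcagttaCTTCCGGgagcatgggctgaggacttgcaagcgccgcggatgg
Isca1, chr13:59769740-59770039, minus strand: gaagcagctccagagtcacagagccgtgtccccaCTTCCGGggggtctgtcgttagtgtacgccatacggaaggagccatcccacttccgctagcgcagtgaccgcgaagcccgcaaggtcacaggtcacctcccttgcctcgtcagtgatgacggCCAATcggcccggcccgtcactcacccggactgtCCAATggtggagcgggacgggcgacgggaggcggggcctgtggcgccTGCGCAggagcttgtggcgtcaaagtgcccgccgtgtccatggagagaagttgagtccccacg
Isca2, chr12:84773020-84773319, plus strand: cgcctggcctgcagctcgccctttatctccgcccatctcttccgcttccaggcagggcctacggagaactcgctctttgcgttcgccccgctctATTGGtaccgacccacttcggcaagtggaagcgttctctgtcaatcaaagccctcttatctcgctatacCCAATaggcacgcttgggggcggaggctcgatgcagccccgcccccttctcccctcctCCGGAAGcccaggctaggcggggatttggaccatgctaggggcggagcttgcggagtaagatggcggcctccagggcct
Ciao1, chr2:127247767-127248066, minus strand: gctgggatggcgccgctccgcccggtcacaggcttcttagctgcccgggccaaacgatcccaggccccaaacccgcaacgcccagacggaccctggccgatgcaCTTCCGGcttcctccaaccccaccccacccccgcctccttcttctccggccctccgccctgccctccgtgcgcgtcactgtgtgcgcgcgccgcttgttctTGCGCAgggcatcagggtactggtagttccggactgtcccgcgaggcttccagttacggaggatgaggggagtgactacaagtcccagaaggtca
The table held windows for 7 of the 9 members (9 windows, of which 3 belong to Bola3). CCGGAAG lay in 4 of the 9 windows, those of Nfs1, Isca1, Isca2 and Ciao1, and in 8.86% of all 32851 windows of this length. CCAAT lay in 6 of the 9, of Isca1, Isca2, Glrx5, Nfu1 and Bola3, and in 37.4% of all windows. TGCGCA lay in 2 of the 9, those of Isca1 and Ciao1, and in 7.76% of all windows. The motifs were chosen with the results known, and a match is a run of letters and not a measured binding site. Any link between a motif and the calls was not tested.

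Total counts per library ranged from 11501053 to 21001341, the lowest being knockout 3. The 9 members together took between 0.0450% and 0.0783% of the counts of a library, and at least 158 counts of each member were found in every library. Libraries are named by their labels throughout. Control 2 stood apart in its sex-linked transcripts, with 52 counts of Xist and 3980 of 4 Y-linked genes, against at least 10458 and at most 5 in the other 5 libraries. Tfrc was at 138, 168 and 62.0 CPM in controls 1 to 3 and at 214, 86.0 and 40.6 CPM in knockouts 1 to 3 (CPM, TMM-normalised counts per 1000000), and the highest value was that of the library labelled knockout 1. Its log2 fold change was -0.11 (SE 0.62; edgeR, adjusted p 0.911) and turned to 0.14 with library size alone and to 0.17 without control 2, and was -0.96 without knockout 1. Most of this transcript lies outside the floxed exons 3 and 4, so its count does not check the labels. Cdh16, the gene of Ksp-cadherin itself, had a log2 fold change of -0.26 (adjusted p 0.545 by edgeR).

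Every member of the assembly machinery had a lower fitted level in knockouts (48.5% of all genes tested did), with log2 fold changes from -1.21 for Nfs1 to -0.35 for Nfu1 and a median of -0.67. The median over all 15171 genes tested was 0.02. Nfs1, Isca1, Isca2 and Ciao1 fell (edgeR's quasi-likelihood test, adjusted p under 0.05 over all genes tested), which is 4 of 9 members called lower, against 6.64% of all genes tested called lower and 17.2% called in either direction. All 3 knockouts lay below all 3 controls for 8 of the 9 members, against 22.2% of all genes tested, and 8 had an unadjusted p under 0.05 with a lower level, against 17.6%. Glrx5 was the exception to the first count, because knockout 1 lay within the control range, and Nfu1 to the other, with an unadjusted p of 0.0786 (edgeR). The calls were close to the threshold and were lost in most fits that left out 1 library. Without control 1, 2 or 3, or without knockout 2 or 3, the number of members called was 0, with a lowest adjusted p among the members of 0.0846, 0.121, 0.102, 0.107 and 0.10 in that order (edgeR), and 7, 7, 6, 5 and 7 members still had an unadjusted p under 0.05. The share of all genes called lower in these 5 fits was 0% except without knockout 2, where it was 0.0389%. The members' median log2 fold change in these 5 fits was -0.73, -0.68, -0.64, -0.58 and -0.59 in the same order. Without knockout 1, 8 members were called, all but Hscb, against 16.4% of genes called lower in that fit. With DESeq2, which the study used, 7 members were called lower, all but Glrx5 and Nfu1, against 15% of genes, and with limma-voom 3 were, against 6.05%. Upper quartile scaling called 2 members, against 6.03% of genes, and library size alone called 1, against 4.36%. With the replicate number as a block, or with the ratio of Xist to Y-linked counts as a covariate, 0 members and 0 of all genes were called (edgeR, lowest adjusted p among the members 0.0764 and 0.115), and 7 members had an unadjusted p under 0.05 in each. At an adjusted p under 0.1 there were 7 members (edgeR), against 14.9% of genes.

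**Figure D1:**
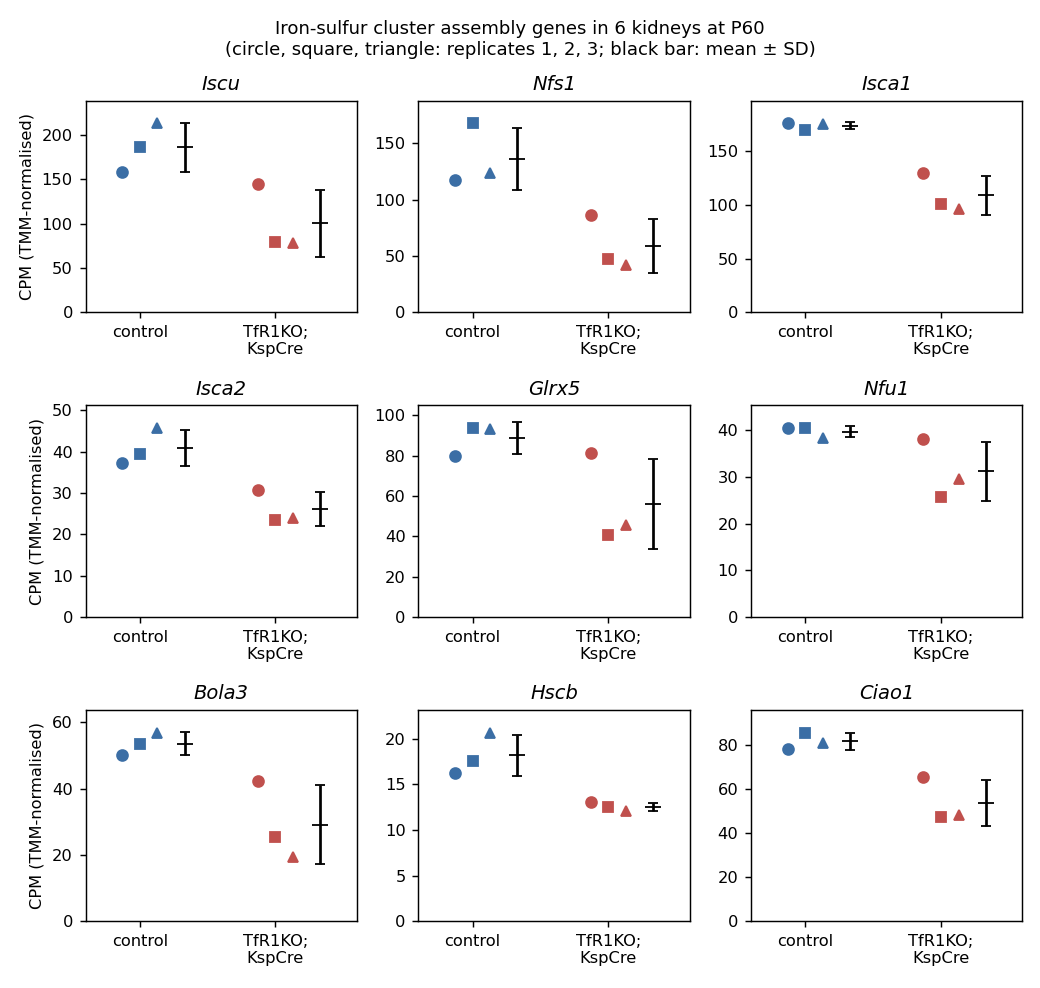
Level of each assembly gene in each library, in TMM-normalised counts per 1000000 (CPM) on axes that start at 0; blue points are the 3 controls, red points the 3 TfR1KO;KspCre libraries, with replicates 1 to 3 as circle, square and triangle, and black bars show the mean ± SD. Knockout 1 (red circle) is the highest knockout for every gene, and all knockouts lie below all controls except for Glrx5.

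The cluster is first built on ISCU with sulfur from NFS1. Nfs1 (ENSMUSG00000027618; chromosome 2, 155904665 to 155969922, minus strand, NCBIM37, 13 exons) was at 117, 168 and 124 CPM in controls 1 to 3 and at 86.2, 47.6 and 42.3 CPM in knockouts 1 to 3. All knockouts were lower than all controls, and control 2 was the highest library. The mean fell from 136 ± 27.4 to 58.7 ± 24.0 CPM (SD, n = 3 each), to 43.1% of the control mean, with a fitted log2 difference of -1.21 (SE 0.30; edgeR, adjusted p 0.0414). Without control 2 the log2 fold change was -1.05 and Nfs1 was not called (edgeR, adjusted p 0.130; range over 16 alternatives 0.00179 to 0.130). Its annotated exons share 148 bases, 7.22% of the transcript, with Romo1 on the opposite strand, and the strand setting of the counting was not found.

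Iscu (ENSMUSG00000025825; chromosome 5, 114222757 to 114228297, plus strand, 4 exons) encodes the scaffold. Controls held 159, 186 and 213 CPM and knockouts 144, 79.1 and 78.2 CPM. Knockout 1 lay near control 1, and the other knockouts were much lower. The mean of 186 ± 27.2 CPM in controls compared with 101 ± 37.9 CPM in knockouts (SD, n = 3 each), with a fitted log2 difference of -0.89 (SE 0.28, 95% interval -1.54 to -0.23). Iscu was not called (edgeR, adjusted p 0.0651). Without knockout 1 its log2 fold change was -1.25 and it was called (edgeR, adjusted p 0.00438; range over 16 alternatives 0.00438 to 0.169).

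The partners of this first step were read from a list of 14 further mitochondrial genes. Lyrm4, whose small protein ISD11 holds NFS1 stable, fell from 21.9 ± 4.23 to 11.8 ± 2.63 CPM (SD, n = 3 each), with a fitted log2 difference of -0.88 (SE 0.24; edgeR, adjusted p 0.0475). The ferredoxin gene Fdx1 fell by 1.33 on the log2 scale (SE 0.26; edgeR, adjusted p 0.0305), from 81.7 ± 11.1 to 32.6 ± 11.6 CPM (SD, n = 3 each). Fdx1l, which encodes the ferredoxin FDX2 that feeds electrons to the scaffold, was at 1.65 ± 0.24 and 1.03 ± 0.38 CPM, at low counts (log2 fold change -0.69, SE 0.40; edgeR, adjusted p 0.240). Without any 1 of the controls, or without knockout 2 or 3, 0 of the 14 genes were called.

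Release from the scaffold takes the co-chaperone HSCB with its HSP70 partner. Hscb (ENSMUSG00000043510; chromosome 5, 111258089 to 111268796, minus strand, 6 exons) had the lowest counts of the members. It was at 16.3, 17.5 and 20.7 CPM in controls and at 13.01, 12.5 and 12.1 CPM in knockouts. The knockouts lay close together here, and all were below the controls. The log2 fold change was -0.53 (SE 0.17, 95% interval -0.94 to -0.13), and Hscb was not called (edgeR, adjusted p 0.0696). Hspa9, the mitochondrial HSP70 that HSCB works with, was at 885 ± 130 CPM across controls and 526 ± 263 CPM across knockouts (SD, n = 3 each), with overlapping groups (log2 fold change -0.75, SE 0.37; edgeR, adjusted p 0.179). Grpel1, its nucleotide exchange factor, fell by 0.78 on the log2 scale (SE 0.18; edgeR, adjusted p 0.0375), from 106 ± 1.91 to 61.8 ± 14.4 CPM (SD, n = 3 each). Its call was lost in the same fits.

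GLRX5 is a glutaredoxin that takes the cluster from the chaperones to later carriers. Glrx5 (ENSMUSG00000021102; chromosome 12, 106270899 to 106279120, plus strand, 2 exons) was at 79.7, 93.7 and 93.3 CPM in controls and at 81.4, 40.7 and 45.7 CPM in knockouts. Knockout 1 lay above control 1, whereas knockouts 2 and 3 were at 45.8% and 51.5% of the control mean. The log2 fold change of -0.67 had a wide interval (SE 0.27, 95% interval -1.31 to -0.03) and Glrx5 was not called (edgeR, adjusted p 0.119). Without knockout 1 it was -1.05 and called (edgeR, adjusted p 0.00470; range over 16 alternatives 0.00470 to 0.284).

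Among the late carriers, the A-type proteins ISCA1 and ISCA2 act together with IBA57 to finish clusters for aconitase and lipoate synthase. Isca1 (ENSMUSG00000044792; chromosome 13, 59856770 to 59871171, minus strand, 4 exons) was at 176, 170 and 176 CPM in controls and at 130, 101 and 96.6 CPM in knockouts. The controls hardly differed, and the groups were well apart. The mean fell from 174 ± 3.25 to 109 ± 17.9 CPM (SD, n = 3 each), with a fitted log2 difference of -0.67 (SE 0.16; edgeR, adjusted p 0.0378), which was -0.70 and not called without control 2 (edgeR, adjusted p 0.121; range over 16 alternatives 0.000595 to 0.121). Of the 100-base stretches of the Isca1 transcript, 49.7% had an identical copy elsewhere in the genome and 88.1% one with at most 2 differences, so that counting only unique alignments lowers its level and makes it uncertain. Isca2 (ENSMUSG00000021241; chromosome 12, 86114220 to 86116039, plus strand, 4 exons) had no such copy. It was at 37.4, 39.4 and 45.7 CPM in controls and at 30.8, 23.4 and 24.0 CPM in knockouts, so it too separated the groups. Its mean fell from 40.8 ± 4.37 to 26.1 ± 4.09 CPM (SD, n = 3 each), with a fitted log2 difference of -0.65 (SE 0.16; edgeR, adjusted p 0.0420), and without control 2 it was -0.68 and not called (edgeR, adjusted p 0.125; range over 16 alternatives 0.00497 to 0.127). Iba57 was at 27.7 ± 3.45 CPM across controls and 19.7 ± 6.47 CPM across knockouts, with overlapping groups (SD, n = 3 each; log2 fold change -0.49, SE 0.25; edgeR, adjusted p 0.187).

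NFU1 and BOLA3 deliver clusters to lipoate synthase and to respiratory complexes. Bola3 (ENSMUSG00000045160; chromosome 6, 83299141 to 83310130, plus strand, 4 exons) was at 50.003, 53.5 and 56.8 CPM in controls and at 42.4, 25.3 and 19.5 CPM in knockouts. Knockout 3 held 36.4% of the control mean and knockout 1 held 79.3%, the widest spread among knockouts of any member relative to their mean (coefficient of variation 41.0%). The log2 fold change was -0.88 (SE 0.28, 95% interval -1.54 to -0.21), and Bola3 was not called (edgeR, adjusted p 0.0686). It was called without knockout 1, at -1.26 (edgeR, adjusted p 0.00429), and by DESeq2 (adjusted p 0.020), and its adjusted p over 16 alternatives ranged from 0.00429 to 0.172. Nfu1 (ENSMUSG00000029993; chromosome 6, 86959230 to 86978455, plus strand, 9 exons) had the smallest difference. Controls held 40.4, 40.5 and 38.3 CPM and knockouts 38.1, 25.7 and 29.6 CPM, so knockout 1 was level with control 3. Its log2 fold change was -0.35 (SE 0.17, 95% interval -0.75 to 0.05; edgeR, adjusted p 0.174), -0.09 with library size alone, and -0.53 without knockout 1, where it was called (edgeR, adjusted p 0.0314; range over 16 alternatives 0.0314 to 0.692). Of the 100-base stretches of Nfu1, 25.5% had a copy with at most 2 differences elsewhere in the genome and 0 an identical one. For Iscu the shares were 30% and 2.31%, and for Bola3 4.95% and 0%.

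CIAO1 is the platform of the cytosolic complex that inserts clusters into its targets, and it is the only cytosolic member. Ciao1 (ENSMUSG00000003662; chromosome 2, 127066674 to 127073552, minus strand, 7 exons) was at 78.0, 85.6 and 81.0 CPM in controls and at 65.6, 47.1 and 48.3 CPM in knockouts, which lay below all controls. The mean fell from 81.5 ± 3.81 to 53.7 ± 10.4 CPM (SD, n = 3 each), with a fitted log2 difference of -0.60 (SE 0.16; edgeR, adjusted p 0.0478). Without control 2 it was -0.58 and not called (edgeR, adjusted p 0.144; range over 16 alternatives 0.00704 to 0.144), and with limma-voom it was not called either (adjusted p 0.0512). Of 10 other genes of the cytosolic machinery 0 passed the test (2 had an unadjusted p under 0.05), 5 were fitted lower and 5 higher, and the median log2 fold change was -0.04, close to that of all genes. Without knockout 1, 3 of the 10 were called lower (edgeR), against 16.4% of all genes. Narfl (log2 fold change -0.65, SE 0.19; edgeR, adjusted p 0.0561) and Fam96a (-0.54, SE 0.18; edgeR, adjusted p 0.0808) had the largest differences. Narfl encodes a carrier between the early and late steps, and Fam96a an adaptor used for the iron regulatory protein IRP1.

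Fam96b and Mms19, which also encode partners of CIAO1, were not called, nor was the electron donor of the early steps. Fam96b, the adaptor of CIAO1 for most targets, was at 21.7 ± 2.26 CPM across controls and 19.2 ± 3.86 CPM across knockouts (SD, n = 3 each, log2 fold change -0.18, 95% interval -0.64 to 0.28, edgeR, adjusted p 0.525). Mms19, which recruits DNA repair and replication enzymes, was at 63.2 ± 6.40 and 68.3 ± 1.41 CPM (SD, n = 3 each; log2 fold change 0.11, 95% interval -0.18 to 0.41; edgeR, adjusted p 0.538). Ciapin1, the electron donor of the early cytosolic steps, had a log2 fold change of -0.39 (95% interval -0.94 to 0.16; edgeR, adjusted p 0.253), and Nubp1, a scaffold of these steps, one of 0.27 (95% interval -0.15 to 0.68; edgeR, adjusted p 0.298). With library size alone, which moved the median of all genes from 0.02 to 0.29, 3 of these 10 genes were fitted lower and their median turned to 0.22, with upper quartile scaling it turned to 0.03, and without control 3 or knockout 2 to 0.06 or 0.02. The 9 members were all fitted lower with library size alone too, with a median of -0.41, and with upper quartile scaling, with a median of -0.60. Whether Ciao1 differed from its partners in its change was not tested.

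**Figure D2:**
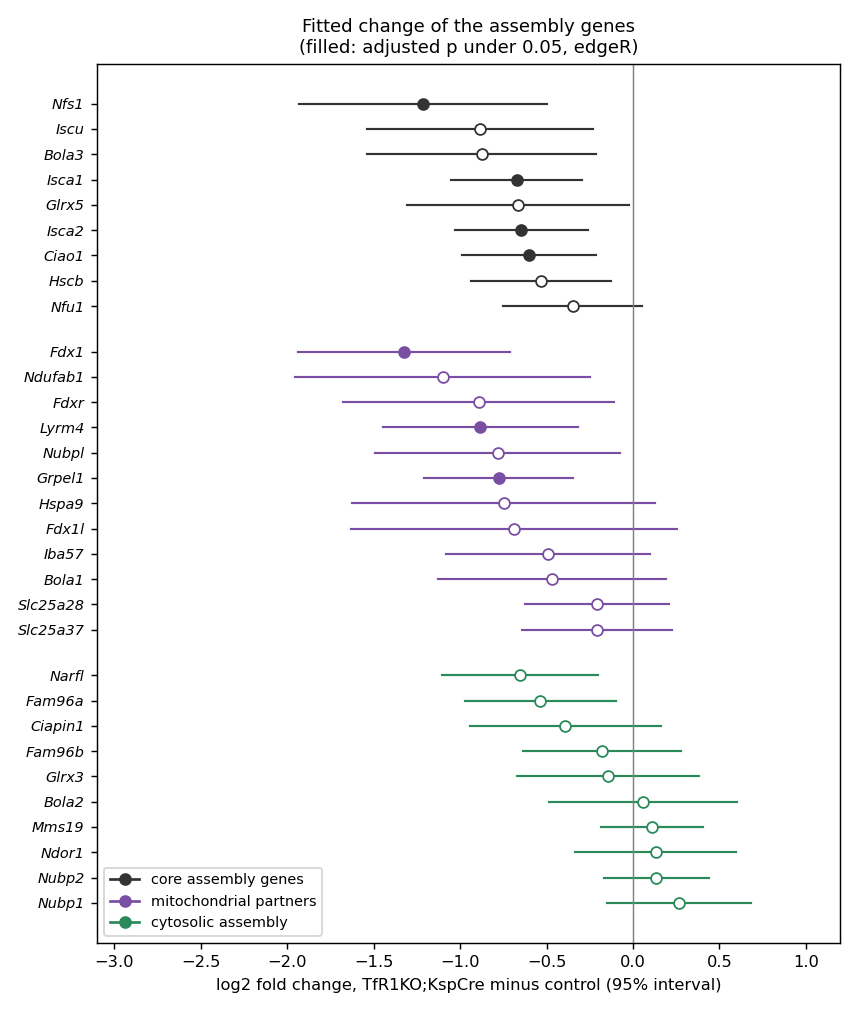
Fitted log2 fold change, TfR1KO;KspCre minus control, with its 95% interval, for the 9 core assembly genes (black), 12 of the 14 mitochondrial partners (purple) and 10 genes of the cytosolic machinery (green); filled points had an adjusted p under 0.05 (edgeR). The black and purple points all lie below 0, from -1.33 for Fdx1 to -0.21, (2 purple points turn positive with library size alone), and the green points lie on both sides of it, from -0.65 to 0.27.

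The order of the members' levels was read per kilobase of the longest annotated coding transcript, in controls. Iscu was the highest, at 133 ± 19.5 CPM per kilobase (SD, n = 3), followed by Glrx5 at 95.6 ± 8.59 and Isca1 at 89.5 ± 1.67, whose ranges overlapped. Nfs1 was at 66.4 ± 13.4, Isca2 at 47.0 ± 5.04 and Nfu1 at 33.2 ± 1.04 CPM per kilobase, with no overlap between neighbours. Ciao1 at 26.5 ± 1.24, Bola3 at 23.1 ± 1.48 and Hscb at 22.6 ± 2.81 CPM per kilobase closed the order, and Hscb overlapped with both others. Isca1 may stand too low in this order because of its copies.

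The knockout libraries were unequal, and the members shared this pattern. Knockout 1 was the highest knockout for 9 of 9 members, and the share of all genes with that order was not counted. The median member was at 77.6% of its control mean in knockout 1, with Nfs1 lowest (63.3%) and Nfu1 highest (96.0%). The same median was 57.4% in knockout 2 and 55.6% in knockout 3, where Nfs1 stood at 34.9% and 31.0%. Knockout 3 was the lowest for 5 members and knockout 2 for 4. Knockout 3 also held more of the ribosomal RNA precursor Rn45s, 2.59% of its counts against 0.506% to 0.745% in the other 5 libraries, and the part of this in the members' values was not tested. Without knockout 3 all 9 members were still fitted lower, with a median log2 fold change of -0.59. Within groups, 8 of 9 members varied more among knockouts than among controls, Hscb being the exception, and the median coefficient of variation was 9.0% in controls and 20.3% in knockouts. Over all genes tested these medians were 15.01% and 21.1%. Knockout 1 also lay between the other libraries over all genes, at 9.67 on a first principal component (69.4% of the variance) that placed controls from -72.6 to -53.2 and the other knockouts at 82.1 and 88.6.

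The lists around the assembly machinery were read next, with the 6.64% of all genes called lower as background. They were chosen with earlier results of these data known. Of the 14 mitochondrial partners 14 were fitted lower (12 with library size alone), 3 were called (Fdx1, Grpel1 and Lyrm4; all lower), and the median log2 fold change was -0.72. Of 13 mitochondrial proteins that carry clusters, 13 were fitted lower and had all knockouts below all controls (22.2% of all genes did), 5 were called lower, and the median was -0.98. Cisd3, which encodes a cluster protein of the CDGSH family, fell by 1.11 (SE 0.23; edgeR, adjusted p 0.0323) and ferrochelatase (Fech), which puts iron into heme, by 0.73 (SE 0.19; edgeR, adjusted p 0.0458) on the log2 scale. Ndufs1 and Ndufv2, cluster subunits of complex I, fell by 1.27 (SE 0.34; edgeR, adjusted p 0.0463) and 0.95 (SE 0.25; edgeR, adjusted p 0.0466), and Sdhb of complex II was called as well. Lipoate synthase (Lias), a client of NFU1 and BOLA3, was not called (log2 fold change -0.56, SE 0.18; edgeR, adjusted p 0.0664).

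Genes of the lipoate pathway, for lipoate transfer and for complexes that use lipoate, gave 4 calls among 8 genes, all lower. Their median was -0.96, and 8 of 8 were fitted lower (7 with library size alone). The called genes were Gcsh of the glycine cleavage system (log2 fold change -1.36, SE 0.33, edgeR, adjusted p 0.0396), Dld (-1.12, SE 0.28, edgeR, adjusted p 0.0408), Dlat (-0.93, SE 0.24, edgeR, adjusted p 0.0431) and Pdha1 (-0.97, SE 0.25, edgeR, adjusted p 0.0445). The last 3 encode subunits of the pyruvate dehydrogenase complex. Cytosolic and nuclear proteins with clusters went both ways, with 10 of 18 fitted lower and a median of -0.04, which turned to 0.03 with upper quartile scaling, to 0.23 with library size alone, and to 0.02 or 0.01 without control 3 or knockout 2. Aco1, which encodes cytosolic aconitase and IRP1, fell from 458 ± 69.6 to 191 ± 73.9 CPM (SD, n = 3 each; log2 fold change -1.26, SE 0.30; edgeR, adjusted p 0.0384), and Dpyd, of pyrimidine breakdown, fell by 1.26 (SE 0.32; edgeR, adjusted p 0.0426). The DNA polymerase subunit Pold1 was fitted at 0.77 on the log2 scale (SE 0.22; edgeR, adjusted p 0.0560) and Ppat, of purine synthesis, one of -0.52 (SE 0.17; edgeR, adjusted p 0.0677), and neither was called. Without any 1 of the controls, or without knockout 2 or 3, 0 genes of these lists were called. Without control 2 their medians were -0.63 for partners, -0.92 for mitochondrial clients, -0.87 for the lipoate pathway and -0.07 for cytosolic and nuclear clients. Without knockout 1, 9 of 14, 13 of 13, 6 of 8 and 4 of 18 were called lower in that order, against 16.4% of all genes, and 2 of the 18 were called higher, against 18%.

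**Figure D3:**
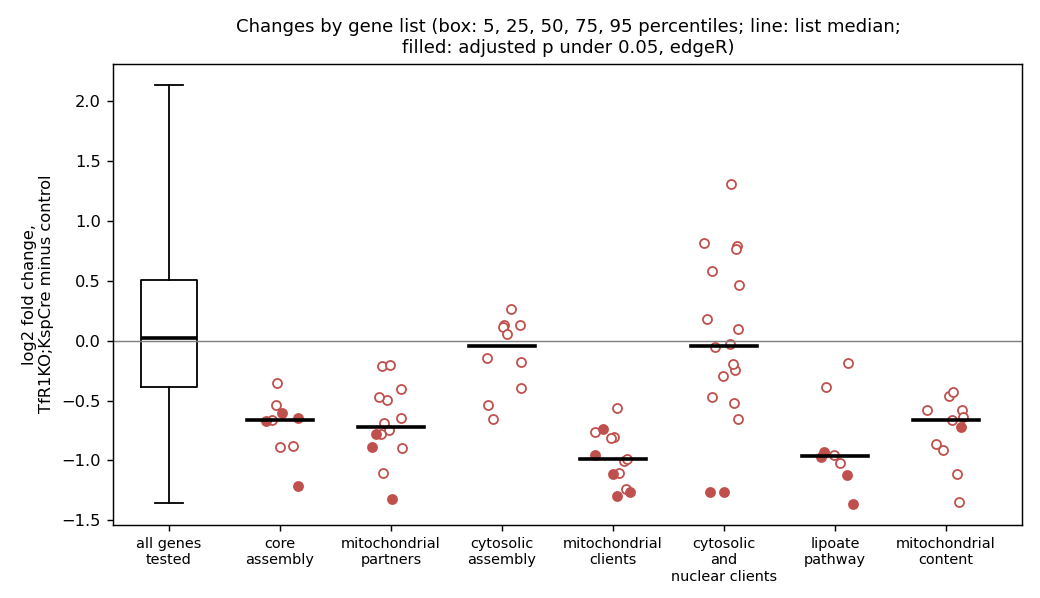
Log2 fold change, TfR1KO;KspCre minus control, of each gene in 7 lists beside the distribution over all genes tested (box and whiskers at the percentiles 5, 25, 50, 75 and 95); thick lines are medians and filled points had an adjusted p under 0.05 (edgeR). The lists of mitochondrial proteins have medians between -0.98 and -0.67, and both cytosolic lists have medians of -0.04, which turn positive with upper quartile scaling, with library size alone, and without control 3 or knockout 2.

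Other transcripts of the mitochondrion and of the tubule also had lower fitted levels in knockouts. Of 11 genes for general mitochondrial proteins, 11 were fitted lower with a median log2 fold change of -0.67, the same as that of the members, and 1 was called, or 9.09%, against 6.64% of all genes called lower (Tfam, the packaging factor of mitochondrial DNA; -0.72, SE 0.19; edgeR, adjusted p 0.0478). Hspd1 (-1.35, SE 0.38; edgeR, adjusted p 0.0530), Vdac1 (-0.92, SE 0.27; edgeR, adjusted p 0.0583) and Cycs (-1.11, SE 0.33; edgeR, adjusted p 0.0597) were next in order and not called. Without knockout 1, 11 of 11 were called lower (edgeR), against 16.4% of all genes. The summed CPM of this list was 76.2%, 47.1% and 42.7% of the control mean in knockouts 1 to 3, and that of the members was 77.1%, 49.2% and 48.4%. The 10 other cytosolic assembly genes stood at 98.7%, 79.7% and 88.3%.

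Of 14 markers of the proximal tubule, 14 were fitted lower and 9 called lower, against 6.64% of all genes, at a median of -2.14 on the log2 scale, and their summed level was 18378 to 26006 CPM in controls and 3160 to 9577 CPM in knockouts, with knockout 1 at 41.4% and knockouts 2 and 3 at 18.5% and 13.7% of the control mean. For the thick ascending limb 6 of 8 were fitted lower and 0 called (2 with an unadjusted p under 0.05), with a median of -1.15, and the sum was 5545 to 12110 CPM in controls and 984 to 7195 CPM in knockouts. Macrophage markers summed to 187 to 215 CPM in controls and 597 to 2087 CPM in knockouts (7 of 8 called higher, against 10.6% of all genes), fibroblast markers to 297 to 643 and 1113 to 4063 CPM (4 of 7 called higher), and T cell markers to 1.79 to 3.42 and 10.6 to 32.9 CPM (4 of 5 called higher). Podocyte markers summed to 526 to 651 CPM in controls and 638 to 942 CPM in knockouts (1 of 5 called higher). No marker of these 6 cell types was at 0 in any library. Of 7 red cell markers the 4 globin genes were listed at 0 in all libraries. The others include Slc4a1, which intercalated cells also express. Their sum was 77.6 to 140 CPM in controls and 14.2 to 67.6 CPM in knockouts (2 tested, 0 called and 1 with an unadjusted p under 0.05 by edgeR). Without knockout 1, 6 of 8 thick ascending limb markers were called lower with a median of -2.17, as were 13 of 14 proximal tubule markers, and 7 of 7 fibroblast and 5 of 5 T cell markers were called higher, against 16.4% of all genes called lower and 18% called higher in that fit (edgeR). Without any 1 of the controls, 0 of these markers were called (edgeR), as were 0 of all genes, with 4808, 4270 and 4823 genes at an unadjusted p under 0.05 without controls 1, 2 and 3. Without knockout 3, 0 of these markers were called either, and without knockout 2 only 6 of the 8 macrophage markers were, against 0.0389% of all genes called lower and 0.435% called higher in that fit (edgeR). The part of these shifts in the members' values was not tested.

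**Figure D4:**
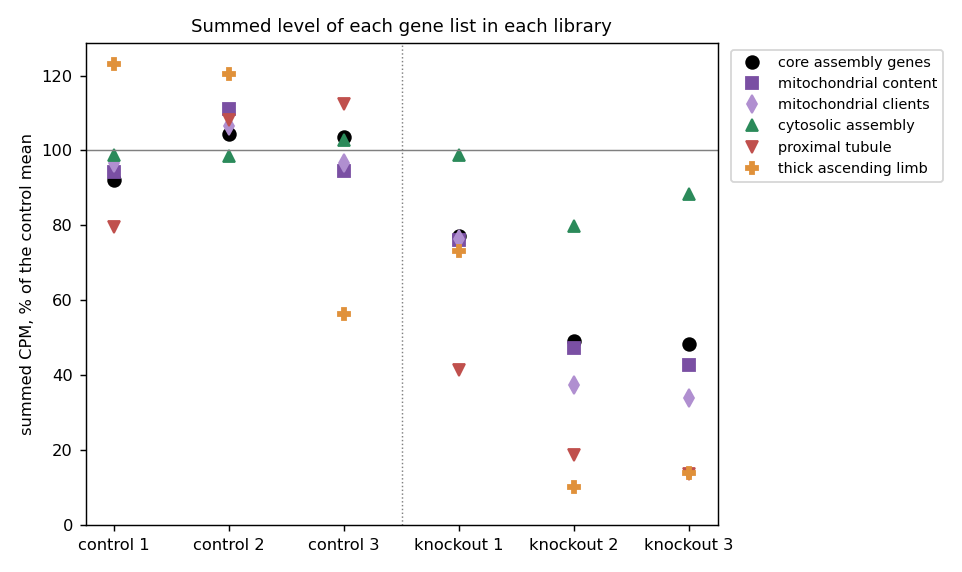
Summed CPM of 6 gene lists in each library, as a percentage of the mean of the 3 controls, on an axis that starts at 0. In knockouts 2 and 3 the core assembly genes stand near the mitochondrial content genes, between 42.7% and 49.2%, with the other cytosolic assembly genes above them and the proximal tubule and thick ascending limb markers at or below 18.5%.

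The genes whose pattern was most like that of the members were sought among 11329 other genes whose mean log2 CPM reached 3, by the root-mean-square difference of gene-centred log2 CPM from the members' mean profile over the 6 libraries. The 5 closest were Dbi, which encodes the acyl-CoA binding protein (difference 0.0319 on the log2 scale), Mrps5 and Mrps30 of the mitochondrial ribosome (0.0447 and 0.0533), Hint1 (0.0483) and Tefm, a mitochondrial transcription elongation factor (0.0538). Members themselves differed from their mean profile by 0.0903 (Ciao1) to 0.32 (Nfs1). Dbi was at 514, 582 and 617 CPM in controls and 440, 293 and 297 CPM in knockouts, with the step between knockout 1 and the other knockouts that the members had. The measure orders genes by shape and size of their differences over 6 libraries that fall into groups, and carries no test.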

How the data were processed

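RNA was measured in 6 whole kidneys, 3 control and 3 TfR1KO;KspCre, grouped by sample title. The authors deposited counts of reads per gene, not normalized. Per the study's methods and the submitters' processing notes, the authors called bases with CASAVA 1.8.2, trimmed single-end reads with Trimmomatic, aligned them to mm9 with TopHat 2.0.11 and counted uniquely mapped reads with HTSeq. The gene annotation and strand setting were not given in the sources used here.

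Genes were kept by edgeR's filterByExpr (minimum count 10, minimum total 15), which left 15171 of 24422, and scaling used TMM factors. Knockouts were compared with controls by edgeR 4.0.16 (legacy quasi-likelihood test, R 4.3.3) over all 6 libraries, with Benjamini-Hochberg adjustment over all genes tested and calls at an adjusted p under 0.05. SE was the log2 fold change divided by the square root of F. Replicates differed by far more than sampling noise (chi-square per degree of freedom 52.9 to 125). A simulation of this comparison held 15020 genes, with 200 genes set to change, a smaller share than was called in the data. There 13 of 81 genes changed by 1 on the log2 scale and 87 of 116 changed by 2 were called, with 7 false calls. Likeness used a prior count of 2.

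Members, lists, named genes and motifs were chosen with earlier results of these data known. Named are the 9 members, Tfrc, Cdh16, chosen partners of the members and, from each other list, up to 4 genes with the smallest adjusted p. Sdhb and Lias were named after their values were seen. Values of 2 partners are not reported here. Alternatives were other scalings, filters and tools (DESeq2 1.42.0, limma-voom 3.58.1), a looser threshold, each library left out, a replicate block, and the Xist to Y-linked ratio as covariate. Coordinates and transcript lengths are from GENCODE M1 on NCBIM37 (mm9). Copies were sought by aligning 100-base stretches at steps of 10 bases with minimap2.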

Additional observations from a re-analysis of the deposited data

How the results depend on the processing

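All 9 members were fitted lower in each of the 16 alternatives that refit the data. Of their 144 values in these, 102 kept their side of the threshold, 35 lost a call, 7 gained one and 0 reversed. All 35 lost calls were of the 4 members called in the main fit. Of the 16 alternatives, Nfs1 was called in 9, Isca1 in 8, Isca2 in 7 and Ciao1 in 5. The members' median log2 fold change stayed between -0.83 and -0.41. The calls did not hold as well. Over all genes there were 2612 calls, of the members 4 and of the 74 distinct genes of the 6 lists around them 15. DESeq2's Wald test gave 4882, 7 and 39, and an adjusted p under 0.1 gave 5034, 7 and 37. Upper quartile scaling called 2 members, and library size alone 1 member and 8 list genes. That scaling put the median of all genes at 0.29 and the share of calls that were lower at 18.2%, against 38.6%. Fits without 1 library gave from 0 to 5332 calls, from 0 to 8 members and from 0 to 48 list genes, with the lowest in every fit without a control and the highest without knockout 1. The Xist to Y-linked covariate gave 0, 0 and 0, with 4219 genes at an unadjusted p under 0.05. The cause was not tested.

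Both groups carry replicate numbers 1 to 3. A replicate block gave 0, 0 and 0, with 5432 genes and 7 members at an unadjusted p under 0.05. After subtraction of group means, libraries of the same number correlated at -0.13, 0.01 and 0.21, and were not treated as pairs.

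Tfrc turned to 0.14 with library size alone and 0.15 with the covariate, to 0.17 without control 2, 0.06 without knockout 2 and 0.29 without knockout 3, and was lowest, at -0.96, without knockout 1. In simulated data with 200 genes set to change, a log2 change of 1 was called for 13 of 81 genes. The data held 2612 calls, and more changed genes loosen the adjusted threshold, so this share does not carry over to them. Members not called are still not shown to be unchanged.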
